A study of Mus musculus with 8 samples.

Results

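Kidney tubular epithelial cells of Pkd1KO mice on a normal protein (NP) diet were compared with those of mice on the low (LP) and the high protein (HP) diet, and the genes sought were those that moved away from NP in the same direction on both altered diets, a U-shaped pattern that does not follow the order of protein content. The comparison used all 8 libraries and was the mean of the LP and HP diet means minus the NP mean of log2(FPKM + 1), where FPKM is a fragment count scaled by transcript length and by library size. Of 53700 genes in the deposited table, 13566 reached 1 FPKM in at least 2 libraries and were tested, and 204 of these were U-shaped by the rule given below.

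The mice carried floxed Pkd1, the gene most often mutated in autosomal dominant polycystic kidney disease, and a tamoxifen-inducible Cre (CAGG-CreER) that is expressed throughout the body, so that deletion was not limited to the kidney. Tamoxifen was given at 5 to 6 weeks of age, and every group, NP included, was Pkd1KO. The diets held 6% (LP, 2 libraries), 18% (NP, 3 libraries) and 60% protein (HP, 3 libraries) and were given at 2.8 g a day for 1 week, after which epithelial cells were flow sorted from kidneys stained for CD11b, F4/80 and the tubule lectins LTL and DBA, and each library was a pool of 2 to 3 mice. Sucrose content was lower the more protein a diet held, and starch was left out of HP, so that protein and carbohydrate cannot be told apart, and the time of day at which kidneys were collected is not given in the sources used here.

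The libraries held an estimated 26600000 to 34600000 fragments and their pairwise correlations were 0.961 to 0.983 for libraries of the same diet and 0.955 to 0.979 for libraries of different diets. Pkd1 itself remained detectable at 1.96, 2.49 and 4.11 FPKM on NP, 1.38 and 1.82 on LP and 2.84, 2.65 and 2.11 on HP. HP lay within the NP range and LP below it, with log2 differences from NP of -0.09 (SE 0.22) on HP and -0.53 (SE 0.25, limma adjusted p = 0.497) on LP. The sexes were not balanced across the comparison. By their labels 1 of 3 NP libraries was female (F2) against 3 of 5 LP and HP libraries, the label KO7 on an NP library names no sex, and that library read as male (Xist 0.78 FPKM, Ddx3y 7.99 FPKM). LP M contained Xist (16.2 FPKM) as well as the Y-linked Ddx3y (9.74 FPKM). Summed FPKM of 15 genes known to be higher in male mouse kidney was 7819 to 36100 on NP and 3137 to 34870 on the other diets. Their median log2 difference was -0.91, and 13 of the 15 lay below NP, against 55.6% of all tested genes. None of the 15 was U-shaped, which at 1.50% of all tested genes is no finding for 15 genes. Of 8 genes known to be higher in female mouse kidney, 5 lay above NP and 3 below, with a median of 0.54. In that list 1 gene was U-shaped and lower, against 1.05% of all tested genes. The part of sex in the results was not tested beyond fits with and without LP M and NP KO7 and a fit with the sex letter as covariate. The covariate fit left out NP KO7.

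After Benjamini-Hochberg adjustment in limma over all tested genes, 4 genes passed 0.05, which is 0.0295% of those tested. Dbp and Ciart fell on the altered diets (0.0147%), and Tg and Snora65 rose (0.0147%). Taken alone, LP differed from NP in 2 genes (0.0147%) and HP in 3 (0.0221%), in comparisons that share the NP libraries. Snora65 was not U-shaped, since it read 4.76 and 5.87 FPKM on LP and was listed at 0 in the other 6 libraries. A gene was counted as U-shaped when no LP or HP library overlapped any NP library, both diets differed from NP in the same direction, and each of these differences had an unadjusted limma p under 0.05.

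The first condition held in 208 higher genes (1.53%) and 448 lower genes (3.30%), together 4.84% of those tested. By the whole rule 62 genes were higher on both altered diets, 0.457% of those tested, and 142 were lower, 1.05% of those tested. LP and HP differed from each other by less than 0.5 times their joint distance to NP in 182 of the 204, which are called even, and in the other 22 one diet lay further out. There were 56 protein-coding genes among the higher set and 129 among the lower set. The median difference was 0.65 on the log2 scale for the higher set and -0.58 for the lower set, with 13 and 10 genes respectively at 2-fold or more. Just inside the rule lay A930017K11Rik, whose weaker diet difference had an unadjusted limma p of 0.0499, and just outside lay Patz1 and Gm4540, both at 0.05.

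**Figure D1:**
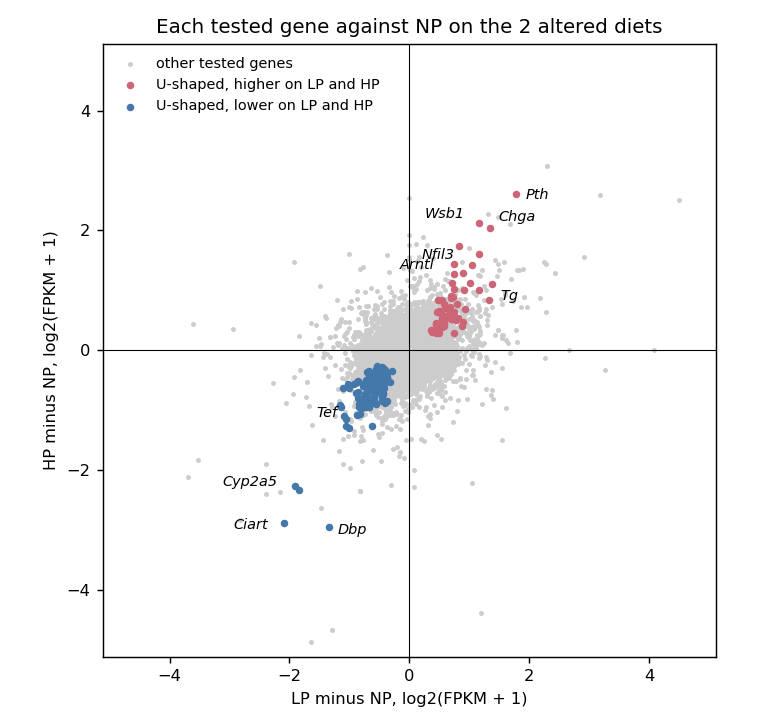
Difference of LP (horizontal) and HP (vertical) from NP in log2(FPKM + 1) for each of the 13566 tested genes, with the 62 U-shaped genes that were higher and the 142 that were lower on both altered diets in colour. Both axes subtract the same 3 NP libraries, so the tilt of the cloud is not a result. The genes to see are those far out near the diagonal, Pth and Chga at the upper right and Ciart and Cyp2a5 at the lower left. Dbp, also at the lower left, lies off the diagonal, at -2.94 on HP and -1.35 on LP.

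Dbp and Ciart, the genes that fell, belong to the circadian clock. In this feedback loop the activators ARNTL (also called BMAL1) and CLOCK bind E-box sequences and switch on the Per and Cry repressors, the nuclear receptors Nr1d1 and Nr1d2 and the PAR bZIP factors Dbp, Tef and Hlf. The repressors then shut the activators down over the day, and the PAR bZIP factors pass the rhythm on through D-box sequences, where NFIL3 opposes them. In kidney this loop is known to drive daily rhythms of sodium transport and metabolism.

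These stretches show where such sequences stand upstream of clock genes that were lower on both diets and of Cyp2a5, the protein-coding gene outside the loop that was lowest against NP. They come from RefSeq starts in build GRCm38.p6, are read on the strand of the gene, and have E-boxes (CACGTG) and D-boxes (TTATGTAA, TTACGTAA, TTATGCAA or TTACGCAA on either strand) in capitals. No E-box shared a base with a D-box in them.
Ciart, chr3:95882259-95882358, minus strand, E-boxes 116, 58 and 44 bases before the start: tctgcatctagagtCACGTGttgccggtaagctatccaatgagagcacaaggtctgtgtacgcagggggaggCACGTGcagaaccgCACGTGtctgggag
Per1, chr11:69098769-69098938, plus strand, E-box 166 and D-box 24 bases before the start: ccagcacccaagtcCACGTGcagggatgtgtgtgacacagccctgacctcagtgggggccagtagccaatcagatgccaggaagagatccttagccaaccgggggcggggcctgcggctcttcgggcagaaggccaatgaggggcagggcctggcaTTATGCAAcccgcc
Tef, chr15:81811254-81811313, plus strand, E-box 138 bases before the start: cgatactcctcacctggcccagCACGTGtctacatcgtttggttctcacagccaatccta
Bhlhe41, chr6:145865531-145865590, minus strand, E-box 153 bases before the start: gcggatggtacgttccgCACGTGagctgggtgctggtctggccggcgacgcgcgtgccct
Per3, chr4:151044806-151044885, minus strand, D-boxes 205 and 158 bases before the start: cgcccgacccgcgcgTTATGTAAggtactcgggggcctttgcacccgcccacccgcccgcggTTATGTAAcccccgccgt
Cyp2a5, chr7:26835229-26835308, plus strand, D-box 71 bases before the start: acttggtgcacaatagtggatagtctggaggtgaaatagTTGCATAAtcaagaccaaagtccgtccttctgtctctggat

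Of 32851 windows of 250 bases before a RefSeq start, 6.02% held an E-box and 1.75% a D-box. Among U-shaped genes with a window, an E-box stood before 13 of 97 lower genes (13.4%) and 6 of 47 higher genes (12.8%), against 10% of 9889 tested genes. The corresponding counts for the D-box were 7 of 97 lower genes (7.22%) and 2 of 47 higher genes (4.26%), against 1.74% of tested genes. Neither motif was found in this way for Dbp, Cry2, Nr1d1, Hlf and Arntl, which says nothing of sites elsewhere. Of 64 genes named by value or in a clock list 50 had a window, so a gene without a motif may have had no window.

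Dbp, a PAR bZIP factor with a wide daily swing in many tissues, stood at 187 (F2), 269 (KO7) and 176 (M) FPKM on NP, at 71.4 (F2) and 91.4 (M) on LP and at 23.9 (F1), 25.3 (F2) and 29.4 (M) on HP. All NP libraries lay above all others, LP was intermediate and the HP libraries were tightly grouped at the bottom. The diet means were 211 ± 51.1 (SD, n = 3), 81.4 ± 14.2 (n = 2) and 26.2 ± 2.90 (n = 3), and NP was 3.92-fold above the mean of the other diet means. On the log2 scale the difference was -2.14 (SE 0.17, limma adjusted p = 0.00583). HP differed from LP by -1.59 on the log2 scale, with a limma adjusted p of 0.0627, so that Dbp was U-shaped but not evenly so.

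Ciart, a repressor of CLOCK and ARNTL activity, read 16.3, 19.2 and 25.5 FPKM on NP (here and below in the order F2, KO7, M), 2.84 and 5.38 on LP (F2, M) and 1.89, 1.33 and 2.42 on HP (F1, F2, M). No altered-diet library came near the NP range, and NP was 6.79-fold above the mean of the others. The log2 difference was -2.48 (SE 0.22, limma adjusted p = 0.00864), the greatest decrease of any protein-coding U-shaped gene. Dbp and Ciart kept these calls without LP M and NP KO7 together (limma adjusted p 0.0111 and 0.0337) and with the replicate label as a block (0.0261 and 0.0097), and lost them without HP F1 (0.069 and 0.0815) with the log2 differences at -2.11 and -2.49.

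**Figure D2:**
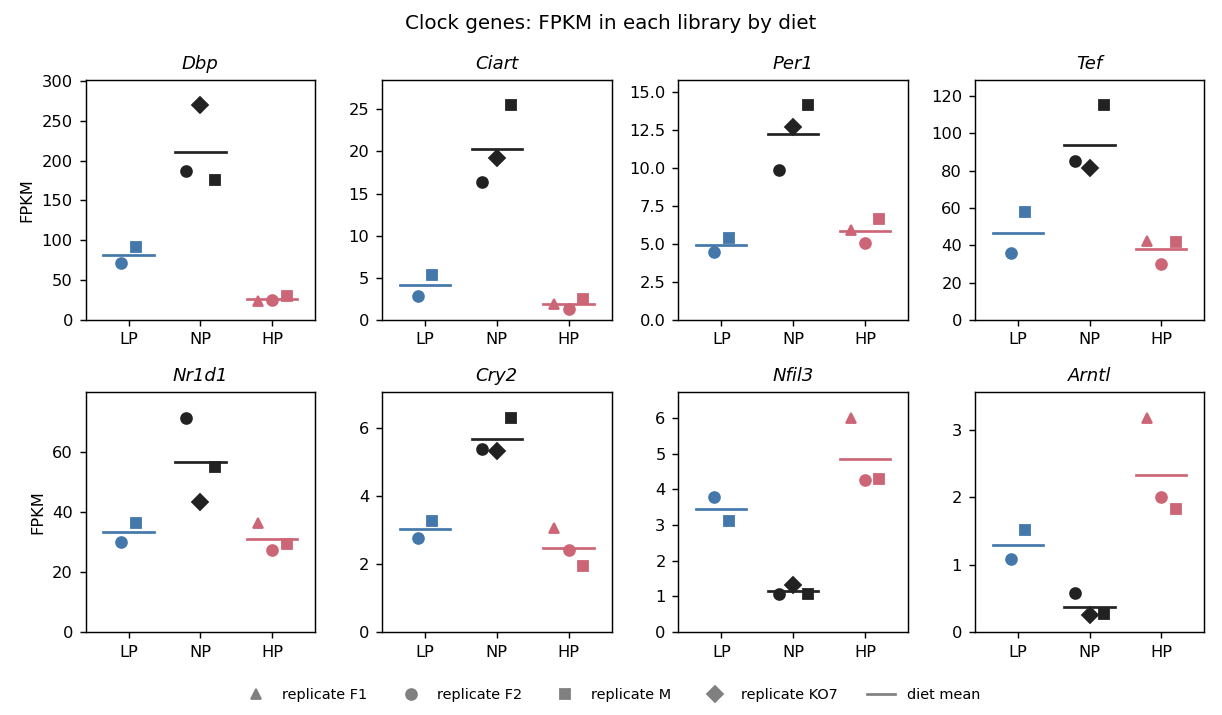
FPKM of 8 U-shaped clock genes in each library (points, shaped by replicate label) with the mean of each diet (lines). Dbp, Ciart, Per1, Tef, Nr1d1 and Cry2 are highest in the 3 NP libraries, and Nfil3 and Arntl are lowest there.

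Clock repressors were lower than on NP in the mean of the altered diets. All 9 tested members of a list of 10 repressors had a negative difference with an unadjusted limma p under 0.05 (5.68% of tested genes), against a median difference of -0.03 over all tested genes. Their median difference was -0.87. Of 22 alternative fits, the one without a filter was left out of the range given here. Under the others the median lay between -1.16 and -0.80, and no member lay above 0. The listed member not tested was Cry1, a partner of the PER proteins, which did not reach the filter and read 0.91, 1.64 and 0.90 FPKM on NP, 0.35 and 0.28 on LP and 0.76, 0.48 and 0.68 on HP. Among the 9, Ciart passed the adjusted threshold and 5 were U-shaped, namely Ciart, Per1, Cry2, Nr1d1 and Bhlhe41.

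Per1, which encodes a PER repressor and also responds to glucocorticoids, was at 9.86, 12.7 and 14.1 FPKM on NP, 4.47 and 5.41 on LP and 5.91, 5.07 and 6.67 on HP. The 5 altered-diet libraries formed one narrow band below NP, with a log2 difference of -1.04 (SE 0.16, limma adjusted p = 0.118). Cry2, the second cryptochrome, was at 5.38, 5.32 and 6.29 FPKM on NP, 2.76 and 3.27 on LP and 3.05, 2.40 and 1.95 on HP, with a log2 difference of -0.84 (SE 0.15, limma adjusted p = 0.233). Again no library of one side reached the other.

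Nr1d1, which encodes the haem-binding repressor REV-ERB alpha, read 71.3, 43.2 and 55.0 FPKM on NP, 30.0 and 36.4 on LP and 36.5, 27.2 and 29.5 on HP. Its NP libraries were spread widely, yet the lowest of them, KO7, was still above the highest on the other diets. Bhlhe41, a repressor that competes for E-boxes, was at 2.13, 2.81 and 2.78 FPKM on NP and at 0.72 to 1.12 in the other 5 libraries, so that all of those read less than the lowest NP library. The log2 differences were -0.78 (SE 0.18) for Nr1d1 and -0.87 (SE 0.16) for Bhlhe41, with limma adjusted p of 0.35 and 0.233.

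The other repressors were lower on average with libraries that overlapped. Per2 read 2.69, 4.40 and 8.41 FPKM on NP, 0.86 and 2.81 on LP and 0.99, 1.10 and 1.08 on HP, and its LP M library lay above the lowest NP library. Per3 read 5.89, 3.59 and 9.84 FPKM on NP, 2.43 and 3.61 on LP and 1.65, 1.41 and 1.78 on HP, with the same LP library just above NP KO7. For both genes the HP libraries were uniformly low and the NP libraries were scattered. Bhlhe40 differed by diet in another way, at 36.8, 24.5 and 22.7 FPKM on NP, 24.2 and 24.2 on LP and 14.2, 12.7 and 9.02 on HP. It was therefore low on HP alone, with a log2 difference from NP of -1.15 on HP and -0.17 on LP. Nr1d2, the paralogue of Nr1d1, had a difference of -0.49 (SE 0.20, limma adjusted p = 0.568).

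Activators and PAR bZIP factors lay on both sides of NP. Of 9 tested genes (Bmal1 and Arntl being one gene), 4 were U-shaped and lower, Dbp, Tef and Hlf among them, and 2 were U-shaped and higher, namely Nfil3 and Arntl. Tef, a close relative of Dbp, read 85.1, 81.6 and 115 FPKM on NP, 35.7 and 57.9 on LP and 42.1, 30.0 and 41.5 on HP. Its NP mean was 2.22-fold above the mean of the others, with a log2 difference of -1.15 (SE 0.20, limma adjusted p = 0.228). Hlf, the third PAR bZIP factor, was at 25.3, 18.6 and 23.8 FPKM on NP, 12.2 and 16.2 on LP and 13.3, 8.79 and 13.5 on HP. Its libraries did not overlap between the sides, and the log2 difference was -0.76 (SE 0.18).

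Nfil3 and Arntl, which are known to peak at another time of day than Dbp, lay on the other side of NP. Nfil3, whose product competes with the PAR bZIP factors at D-boxes, stood at 1.06, 1.33 and 1.08 FPKM on NP, 3.79 and 3.12 on LP and 6.0, 4.25 and 4.29 on HP. The NP libraries were nearly identical and NP was exceeded 3.59-fold by the mean of the other diets, with a log2 difference of 1.24 (SE 0.16, limma adjusted p = 0.0518). Arntl, the partner of CLOCK, stood at 0.58, 0.25 and 0.27 FPKM on NP, 1.08 and 1.51 on LP and 3.18, 2.00 and 1.82 on HP. These are low levels, at which the added 1 FPKM shrinks the change, and the log2 difference was 1.011 (SE 0.19, limma adjusted p = 0.242) for a 4.95-fold ratio of means.

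Clock itself was at 2.97, 2.10 and 3.22 FPKM on NP and 3.14 to 5.03 in the other libraries, a difference of 0.38 (SE 0.16, limma adjusted p = 0.573) with overlapping libraries. Rora, a nuclear receptor that activates Arntl, differed by -0.30 (SE 0.16). Npas2, a relative of Clock, had no stable direction, with 0.15 (SE 0.32) here and negative values under 5 of the alternative fits.

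**Figure D3:**
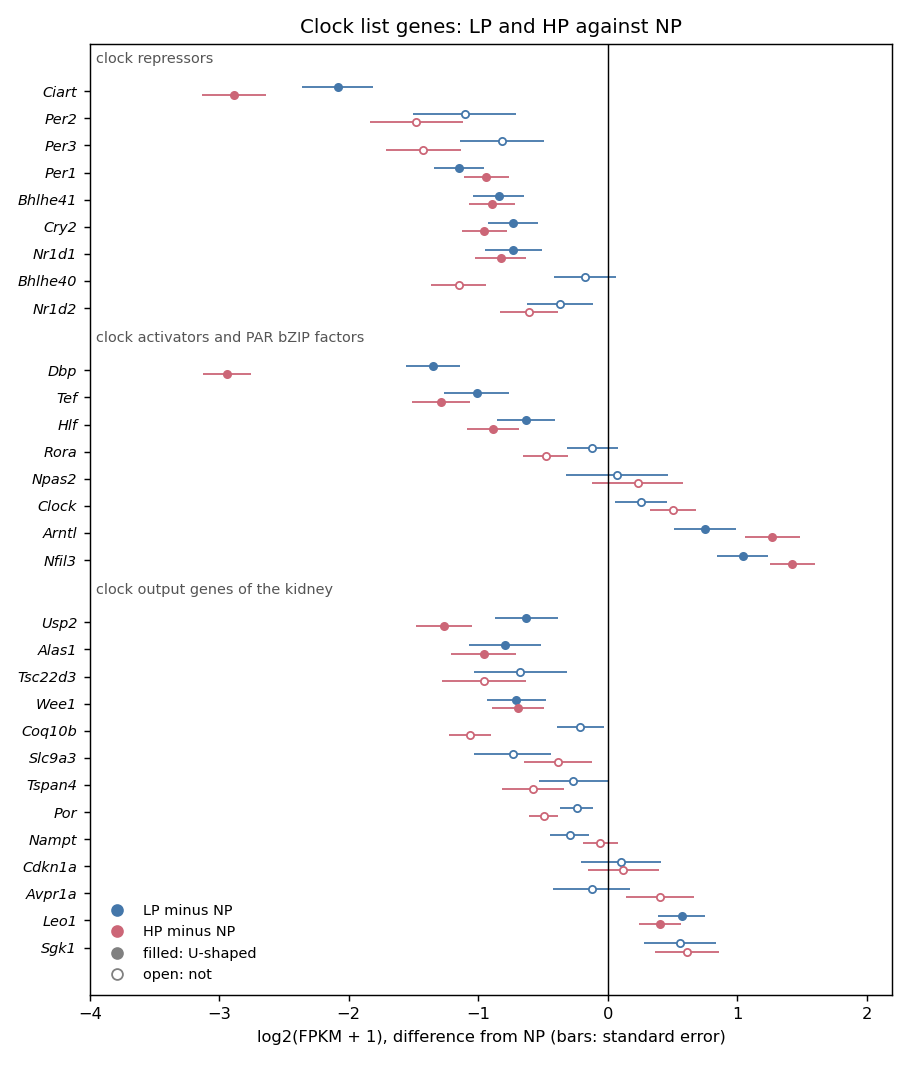
Difference of LP and of HP from NP in log2(FPKM + 1), with standard errors, for genes of the 3 clock lists that are named in the text, filled where U-shaped. Repressors and PAR bZIP factors lie left of 0 on both diets, Arntl, Nfil3, Leo1 and Sgk1 lie right of it, and Dbp, Bhlhe40 and Coq10b lie further out on HP than on LP.

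Kidney genes known to be under clock control lay on both sides of NP. Of 13 tested output genes 3 were U-shaped and lower, 1 was U-shaped and higher, and 7 were lower at an unadjusted limma p under 0.05. Usp2, a deubiquitinase, read 57.8, 82.4 and 61.0 FPKM on NP, 33.8 and 53.3 on LP and 24.3, 24.3 and 33.3 on HP, a log2 difference of -0.95 (SE 0.19, limma adjusted p = 0.287). Alas1, the rate-limiting enzyme of haem synthesis, read 106, 215 and 149 FPKM on NP, 70.9 and 106 on LP and 82.7, 73.0 and 75.6 on HP. For Alas1 the highest LP library and the lowest NP library all but touched, and the log2 difference was -0.87 (SE 0.22, limma adjusted p = 0.419).

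Wee1, a kinase that restrains entry into mitosis, was at 3.80, 6.60 and 4.48 FPKM on NP and 2.25 to 2.96 in the others, a log2 difference of -0.70 (SE 0.18). Leo1, a subunit of the PAF1 transcription complex, was the output gene that was higher, at 2.73, 2.32 and 2.92 FPKM on NP and 3.15 to 4.68 in the others. Por, the electron donor of cytochromes P450, was lower by 0.37 (SE 0.10) without being U-shaped. Coq10b, a coenzyme Q carrier, was low on HP alone, where its difference from NP was -1.06 against -0.21 on LP.

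The remaining output genes gave wider errors. Tsc22d3, a glucocorticoid target, differed by -0.82 (SE 0.29) and Slc9a3, the apical sodium-proton exchanger of the proximal tubule, by -0.56 (SE 0.24), while Sgk1, a kinase that raises sodium uptake, differed by 0.58 (SE 0.22). Nampt, Tspan4, Avpr1a and Cdkn1a had differences of -0.17, -0.42, 0.14 and 0.11, none with an unadjusted limma p under 0.05. Over the 3 clock lists together 15 of 31 tested genes were U-shaped (48.4%), against 1.50% of all tested genes, and 25 had an unadjusted limma p under 0.05, against 8.65%. The clock lists were drawn up with results of these data known, so these shares describe the lists and are not independent evidence.

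A second group was made up of transcripts of the thyroid and parathyroid glands, which lie next to each other in the neck and are not part of the kidney. Tg, which encodes thyroglobulin, the storage protein of the thyroid, read 92.6, 83.5 and 118 FPKM on NP, 240 and 264 on LP and 188, 211 and 235 on HP. The lowest altered-diet library was well above the highest NP library, and the mean of the other diets was 2.37-fold above NP. The log2 difference of 1.24 (SE 0.14) had a limma adjusted p of 0.0479, which is close to the threshold. The call was lost with the replicate label as a block (limma adjusted p = 0.0585) and without LP M and NP KO7 (0.272), and in 16 of the 22 alternatives altogether, with the difference between 1.10 and 1.38 in every one of them.

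Pth, which encodes parathyroid hormone, read 13.2, 29.7 and 13.8 FPKM on NP, 76.8 and 51.5 on LP and 144, 124 and 79.8 on HP. It had the largest positive difference of the U-shaped genes on the log2(FPKM + 1) scale, 2.20 (SE 0.30, limma adjusted p = 0.0662), with a 4.77-fold ratio of means, and it passed with the replicate block (0.028) and without LP M and NP KO7 (0.0326). Chga, which encodes chromogranin A of hormone granules, was at 2.74, 2.48 and 2.60 FPKM on NP, 10.7 and 6.11 on LP and 18.5, 10.7 and 13.3 on HP. The 3 NP libraries were within a narrow band, and the log2 difference was 1.69 (SE 0.21, limma adjusted p = 0.0518). Calca, which encodes calcitonin, was at 11.4, 20.03 and 24.1 FPKM on NP, 32.9 and 56.9 on LP and 37.3, 39.5 and 23.2 on HP, with one HP library inside the NP range.

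Other markers on that list of 8 did not follow. Casr, the calcium-sensing receptor that parathyroid and thick ascending limb share, was lower on LP alone, at 0.60 and 0.99 FPKM against 3.26, 7.47 and 3.74 on NP and 6.98, 4.37 and 2.42 on HP. The parathyroid factor Gcm2 and the thyrotropin receptor Tshr did not reach the filter, reading 0 to 0.04 and 0.12 to 0.33 FPKM, with Gcm2 listed at 0 in 2 libraries. The summed level of the 8 markers was 125 to 165 FPKM on NP and 357 to 396 on the other diets. Tg and Pth, described above, made up most of that sum, so its split is not independent of theirs. In NP F2 they read 92.6 and 13.2 FPKM of 125. In bulk RNA more cells of a type and more RNA per cell cannot be told apart, and the part of neck gland tissue or its RNA in these libraries was not tested.

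Cyp2a5, a cytochrome P450 that metabolises coumarin and nicotine and is under PAR bZIP control in mouse liver and kidney, had the lowest value against NP of the U-shaped protein-coding genes outside the clock lists. It read 381, 326 and 391 FPKM on NP, 82.9 and 112 on LP and 49.1, 54.2 and 160 on HP. The NP libraries were similar to one another and far above the rest, among which HP M was the highest. NP exceeded the mean of the other diets 3.95-fold, a log2 difference of -2.08 (SE 0.35, limma adjusted p = 0.196) that passed the threshold without HP M (0.00183). Its neighbour in sequence, Cyp2a4, read 76.2, 119 and 113 FPKM on NP and 21.5 to 84.1 in the others, a difference of -0.98 (SE 0.37) with overlap, and reads shared by these near-identical genes make both levels uncertain.

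Several genes that encode or serve molecules of the major histocompatibility complex (MHC), which presents antigens, were U-shaped. They were not a list of their own and did not all lie on one side. B2m, the light chain of MHC class I, read 260, 283 and 285 FPKM on NP, 470 and 387 on LP and 432, 435 and 363 on HP, 1.52-fold above NP in the means. Its difference was 0.60 on the log2 scale (SE 0.12, limma adjusted p = 0.287). Of MHC class II, the invariant chain Cd74 read 38.3, 46.3 and 45.2 FPKM on NP, 96.6 and 69.1 on LP and 97.1, 103 and 66.4 on HP. All 5 of these exceeded every NP library, with a difference of 0.95 (SE 0.18, limma adjusted p = 0.233).

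H2-Ab1 and H2-Eb1, class II beta chains, were also U-shaped, with differences of 1.08 (SE 0.28) and 0.81 (SE 0.18). H2-Ab1 read 31.2, 39.3 and 27.7 FPKM on NP, 94.4 and 57.2 on LP and 72.9, 96.9 and 40.2 on HP, so that HP M all but reached NP KO7. H2-Aa, the class II alpha chain, differed by 0.65 (SE 0.21) and was not U-shaped, since its LP difference from NP was only 0.38 (SE 0.26). H2-Q5, a class I gene annotated as a polymorphic pseudogene and named here after its values were seen, was U-shaped and lower, at 10.4, 4.57 and 6.42 FPKM on NP and 1.66 to 4.46 in the others, a difference of -1.11. Class I genes are near-identical in sequence, so its level is uncertain. Interferon response genes were above NP in 16 of 18, against 44.4% of all tested genes, with a median of 0.31. None was U-shaped, which at 1.50% of all tested genes is no finding for 18 genes. Without overlap 3 were higher, against 1.53% of all tested genes. Bst2, Psmb8, Psmb9 and Oasl2 of this list differed by 0.55, 0.37, 0.45 and 0.46.

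Macrophage markers lay higher in the same libraries. Of 16 tested macrophage markers 15 were higher, against 44.4% of all tested genes, with a median of 0.405. There were 3 U-shaped and higher markers, against 0.457% of all tested genes, the class II genes Cd74 and H2-Ab1 and lysozyme Lyz2. The list's summed level was 153 to 251 FPKM on NP and 299 to 434 on the other diets, without overlap. That sum includes Cd74, H2-Ab1 and H2-Aa, described above, so its separation is not independent of theirs. In NP F2, Cd74 and H2-Ab1 read 38.3 and 31.2 FPKM of a sum of 153. In HP F2 they read 103 and 96.9 of 434. The defining markers Adgre1 (F4/80) and Itgam (CD11b), for which the cells had been stained, were at 0.46 to 1.40 and 0.59 to 1.60 FPKM over the libraries, with differences of 0.19 (SE 0.18) and 0.20 (SE 0.17) that were not U-shaped. The part of macrophage RNA in the class II values was not tested. Endothelial markers were above NP in 11 of 12, also against 44.4% of all tested genes. Emcn alone was U-shaped and higher, against 0.457% of all tested genes. The summed level of the endothelial list overlapped, at 89.3 to 115 FPKM on NP and 94.8 to 213 on the others.

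**Figure D4:**
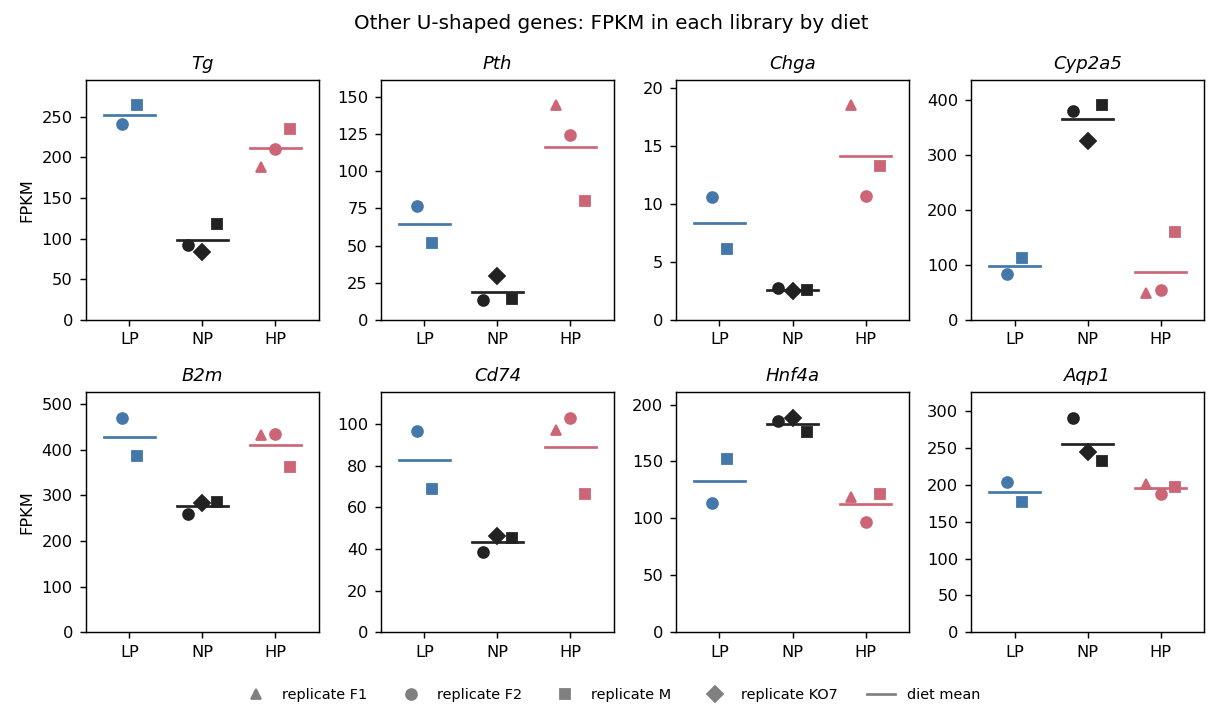
FPKM of 8 further U-shaped genes in each library (points, shaped by replicate label) with the mean of each diet (lines). Tg, Pth, Chga, B2m and Cd74 are lowest in the 3 NP libraries, and Cyp2a5, Hnf4a and Aqp1 are highest there.

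Among genes of the proximal tubule the lower set held a regulator and several transport and metabolic genes at high level. Hnf4a, the nuclear receptor that maintains proximal tubule identity, read 185, 188 and 176 FPKM on NP, 113 and 152 on LP and 119, 97.1 and 122 on HP. The NP libraries were nearly equal and stood apart from all others, with a log2 difference of -0.59 (SE 0.14, limma adjusted p = 0.35). Its antisense transcript Hnf4aos, singled out after its values were seen, lay on the other side, at 7.57, 7.73 and 9.13 FPKM on NP, 15.7 and 11.9 on LP and 16.9, 15.4 and 10.6 on HP. The sources give conflicting library kits, one of which does not mark strand, so reads of the pair may not have been separated.

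Aqp1, the water channel of proximal tubule and thin descending limb, read 291, 245 and 232 FPKM on NP, 204 and 176 on LP and 202, 188 and 197 on HP. The altered diets lay in one band, with a difference of -0.40 (SE 0.12, limma adjusted p = 0.479). Slc6a19, the main carrier of neutral amino acids at the brush border, read 140, 186 and 216 FPKM on NP, 104 and 91.9 on LP and 135, 105 and 137 on HP. Its difference was -0.68 (SE 0.17), and it was the U-shaped gene among 19 tested amino acid transporters, 13 of which were lower, where 55.6% of all tested genes were lower and 1.50% U-shaped. Of 20 proximal tubule markers 14 were lower, also against 55.6% of all tested genes, with a median of -0.28, and Hnf4a and Aqp1 were U-shaped. The list's summed level was 10810 to 11870 FPKM on NP and 9282 to 10570 on the others.

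Further lower genes covered vitamin D, retinoid and amine metabolism. Cyp27b1, the enzyme that makes active vitamin D, read 6.40, 3.33 and 3.69 FPKM on NP, 2.19 and 1.80 on LP and 1.07, 2.44 and 1.35 on HP, a difference of -0.94 (SE 0.24, limma adjusted p = 0.409). All 5 altered-diet libraries lay below the lowest NP library. Retsat, a retinol saturase, was at 197, 206 and 203 FPKM on NP, 149 and 161 on LP and 102, 111 and 124 on HP, the NP libraries again being closely grouped. Aldh9a1, which oxidises trimethylaminobutyraldehyde in carnitine synthesis, differed by -0.49 (SE 0.14).

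Grina, a membrane protein linked to calcium release, and Tmem174, a proximal tubule membrane protein, differed by -0.44 (SE 0.11) and -0.37 (SE 0.12). Tln2, which encodes the adhesion protein talin 2, came closest to adjustment of the genes outside the groups above, at 57.1, 63.1 and 59.3 FPKM on NP, 30.1 and 34.3 on LP and 32.5, 26.8 and 24.4 on HP. Its NP mean was 1.99-fold above the others, a difference of -0.98 (SE 0.13, limma adjusted p = 0.0518). Tnfrsf21, a death receptor, was similar at 68.6, 83.2 and 76.8 FPKM on NP and 34.9 to 46.0 in the others, a difference of -0.86 (SE 0.13, limma adjusted p = 0.118).

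Rbm3, an RNA-binding protein induced by mild cold, read 109, 131 and 151 FPKM on NP, 85.8 and 89.8 on LP and 64.5, 72.5 and 70.7 on HP. Muc20, a cell surface mucin, and Serpina1b, an alpha-1-antitrypsin gene, were lower by 1.04 (SE 0.18) and 0.89 (SE 0.24) on the log2 scale at 4.24 ± 1.09 and 3.70 ± 1.58 FPKM on NP (SD, n = 3). Serpina1b has near-identical paralogues, so its level is uncertain. Of 17 genes of polycystic disease and cilia, 2 were U-shaped and lower, against 1.05% of all tested genes. They were Glis2, a nephronophthisis gene, and Cys1, which encodes cystin of the primary cilium, lower by 0.65 (SE 0.15) and 0.58 (SE 0.14). Their values on NP were 49.9, 56.2 and 45.5 FPKM for Glis2 and 40.5, 41.4 and 33.0 FPKM for Cys1.

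Outside the MHC and the neck glands, the higher set was led by Wsb1. Wsb1, a ubiquitin ligase adaptor, read 11.3, 7.12 and 15.7 FPKM on NP, 24.97 and 26.1 on LP and 74.6, 51.8 and 33.3 on HP. HP lay above LP and both above NP, with a difference of 1.64 (SE 0.28, limma adjusted p = 0.228). Rarres2, which encodes the adipokine chemerin, read 27.8, 32.4 and 25.3 FPKM on NP, 39.5 and 58.4 on LP and 70.7, 96.2 and 72.0 on HP, a difference of 1.09 (SE 0.17, limma adjusted p = 0.147). Every HP library of both genes exceeded every LP library.

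Cox6a2, a heart and muscle subunit of cytochrome c oxidase, and Aqp8, a water and ammonia channel, differed by 1.28 (SE 0.26) and 1.38 (SE 0.29) from NP means of 4.74 ± 2.48 and 0.89 ± 0.39 FPKM (SD, n = 3). Slc25a25, a mitochondrial ATP-magnesium carrier, differed by 1.09 (SE 0.29), its highest value being LP M at 72.6 FPKM. Rcan1, an inhibitor of calcineurin, and Fabp5, a fatty acid binding protein, differed by 0.68 (SE 0.13) and 0.69 (SE 0.13). Gm2026, a predicted gene of a repeated family, differed by 0.81 (SE 0.15) and is uncertain for its copies.

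At high level, Eno1, a glycolytic enolase, read 499, 362 and 449 FPKM on NP, 719 and 616 on LP and 746, 682 and 527 on HP. Its difference was 0.60 (SE 0.16, limma adjusted p = 0.445), with HP M only slightly above NP F2. Cldn10, a tight junction claudin, read 101, 132 and 113 FPKM on NP and 144 to 209 in the others. Htra1, a secreted protease, Pnp, a purine phosphorylase, and Ube2b, a ubiquitin-conjugating enzyme, differed by 0.57 (SE 0.14), 0.45 (SE 0.11) and 0.34 (SE 0.11).

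Not every list that differed from NP was U-shaped. Collecting duct principal cell markers were lower in 10 of 11, against 55.6% of all tested genes, with a median of -0.53. Of them 8 were lower at an unadjusted limma p under 0.05, against 5.68% of all tested genes. None was U-shaped, which at 1.05% of tested genes that were U-shaped and lower is no finding for 11 markers. Aqp2, the vasopressin-regulated water channel, read 179, 218 and 305 FPKM on NP, 79.4 and 91.9 on LP and 226, 200 and 141 on HP. It was low on LP, while HP overlapped NP, with differences of -1.41 (SE 0.26) and -0.30 (SE 0.23). Aqp3, Scnn1a, a subunit of the epithelial sodium channel, and Fxyd4 had LP differences of -1.12, -1.42 and -0.70 against HP differences of -0.46, -0.05 and -0.21. The list's summed level was 374 to 571 FPKM on NP, 211 to 218 on LP and 291 to 453 on HP.

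Of the 25 pathway lists other than the clock lists, 16 held no U-shaped gene, which at 1.50% of all tested genes is no finding for lists of this length. Among the 16 were immediate early genes, heat shock genes, ribosomal proteins, proteasome subunits, amino acid shortage and ATF4 targets, aminoacyl-tRNA synthetases, and fatty acid and cholesterol synthesis. Their medians lay between -0.03 and 0.10, where that of all tested genes was -0.03, but a joint median can hide opposite diets. Ribosomal proteins were above NP in 27 of 32, against 44.4% of all tested genes, with medians of 0.349 on LP and -0.155 on HP. Proteasome subunits had medians of 0.198 on LP and -0.09 on HP. Targets of PPAR alpha and of fasting were lower in 17 of 21, against 55.6% of all tested genes, with a median of -0.39. Of them 7 were lower at an unadjusted limma p under 0.05, against 5.68% of all tested genes. None was U-shaped, which at 1.50% of all tested genes is no finding for 21 genes.

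**Figure D5:**
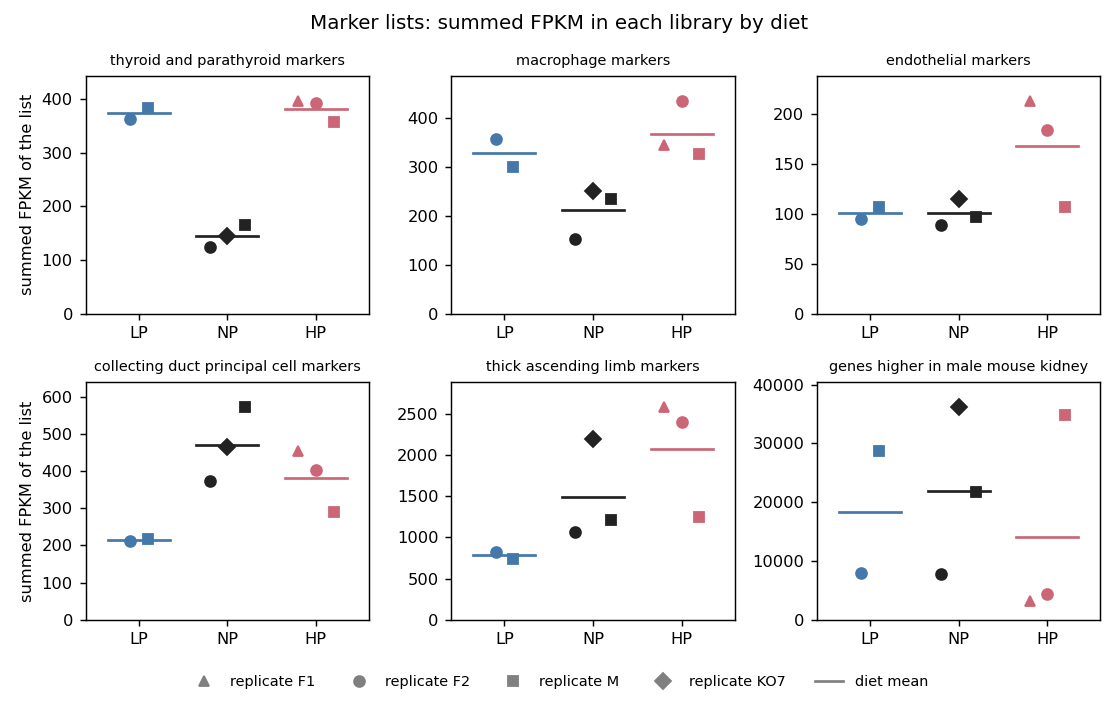
Summed FPKM of 6 marker lists in each library (points, shaped by replicate label) with the mean of each diet (lines). Thyroid and parathyroid and macrophage markers are lowest in the 3 NP libraries, and collecting duct markers are low in the 2 LP libraries. The gland and macrophage sums include U-shaped genes named in the text, such as Tg, Pth, Cd74 and H2-Ab1. Genes of male kidney are higher in every M and KO7 library than in any F1 or F2 library. Among the F1 and F2 libraries they are lower on HP than on NP and LP.

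The U-shaped genes also differed among themselves in which library came nearest to the other side. In the lower set HP F1 was the altered-diet library closest to NP in 61 of 142 genes, LP M in 42 and HP M in 28, while LP F2 and HP F2 were closest in 9 and 2. In the higher set HP M was closest in 23 of 62 and LP M in 16. On the NP side F2 was closest for 62 of the 142 lower genes and KO7 for 28 of the 62 higher genes. Median level was 13 FPKM in the higher and 13.5 FPKM in the lower set, against 7.16 FPKM for all tested genes, and median transcript length was 1271 and 1921 bases against 1603 bases.

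The number of U-shaped genes depended on scaling and on whether the replicate label was fitted. With replicate labels F2 and M as a block, in the 6 libraries that share them, 194 genes were higher and 744 lower, and 166 of the 204 were found again. Scaling every library to one FPKM sum gave 31 higher and 178 lower, and the median of ratios gave 122 higher and 139 lower. At an unadjusted limma p under 0.05 the split was 403 higher to 771 lower (34.3% higher), and it was 16.6% under the common sum, 23.3% when that sum left out haemoglobin and mitochondrial genes, 47.0% under the median of ratios and 46.7% under quantile normalization.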

How the data were processed

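RNA of flow-sorted kidney epithelial cells was measured in 8 libraries of Pkd1KO mice (LP 2, NP 3, HP 3). The deposited FPKM values came from RSEM 1.3.3 run by the authors on mouse build GRCm39 after trimming by Trim Galore 0.6.7, tools that the submitters' processing notes name. FPKM is not a count, so no count test was used. Steps between low FPKM values of genes with a single transcript were matched to whole fragments (82.3% to 88.4% of values within 0.15 of a whole fragment, against 30.0% under an even spread), which gave the depths, but RSEM splits fragments between transcripts, so whole reads were not recovered for other genes. Gene names came from GENCODE M21 (52147 IDs matched, 1553 did not).

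Values were tested as log2(FPKM + 1), with 1 FPKM or more in at least 2 libraries, using limma 3.58.1 in R 4.3.3 with an intensity trend, 1 mean per diet, 5 residual degrees of freedom and Benjamini-Hochberg adjustment over 13566 genes. LP against NP and HP against NP share the 3 NP libraries. No source says which libraries came from separate cohorts, so p-values measure the spread between these pools. Named genes were, per direction and protein-coding, the 10 U-shaped genes with the largest difference, the 10 without overlap with the smallest p and the 10 U-shaped genes with the highest level, then up to 4 members of each described list by p, Pkd1 and all clock list members. Names outside this rule are list members whose level a statement needed, and a few list members are not reported here. The members and lists were chosen with earlier results of these data known.

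Libraries with the same label deviated together from their diet means (correlation 0.145 to 0.346 over 6 pairs), so a block on F2 and M was fitted. The 2 LP libraries deviate from their mean in mirror image, so the 6 pairs are not independent. No label says that libraries with the same label were handled together. In the libraries used, the block is the same as the sex letter, so a pairing and sex cannot be told apart. Alternatives were other pseudocounts, filters, scalings, variance models, a sex covariate, the block and each library left out. The fit was tested on simulated data. Python 3.11.15 with pandas 2.3.3 was used for the remaining steps.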

Additional observations from a re-analysis of the deposited data

How the results depend on the processing

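Of 83 named genes, 3 reversed under at least 1 of 22 alternatives and the others kept their direction in every alternative that gave a value. Npas2 reversed to -0.21 with array weights, -0.19 with the replicate block, -0.20 with the sex covariate, -0.17 without NP KO7 (range with 1 library left out -0.17 to 0.56) and -0.035 without LP M and NP KO7. Cdkn1a reversed to -0.05 without LP M and -0.14 without NP M (range -0.14 to 0.30), and Avpr1a to -0.11 without NP F2 (range -0.11 to 0.31). The causes were not tested. Dbp and Ciart passed adjustment in 19 of 22, Tg in 6, Pth in 5, Nfil3 and Snora65 in 4, Chga and Tln2 in 3 and Cyp2a5 in 2.

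Genes higher at adjusted p under 0.05 numbered 2 in the fit as reported, 1 with a pseudocount of 0.5, the 3-library filter, no trend or the replicate block, 4 with array weights or the sex covariate, and 0 without a filter, with a common sum (with or without haemoglobin and mitochondrial genes) or with LP and HP as one group. Lower genes numbered 2 as reported, 0 without a filter or as one group, 9 with the sex covariate and 4 without LP M and NP KO7 (chosen after seeing the data). With 0 genes called, limma still gave 878 higher and 1065 lower at an unadjusted p under 0.05 without a filter, and 312 and 668 as one group. Leaving out 1 library gave 0 to 2 higher and 0 to 3 lower, with none in either direction without HP F1.

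U-shaped higher genes (62 as reported) numbered 144 without a filter, 31 with a common sum, 122 with the median of ratios, 145 with quantile normalization, 194 with the replicate block, 191 with the sex covariate and 40 to 154 with 1 library left out, the extremes being without LP F2 and without NP KO7, with 41 without LP M and 117 without NP F2. Lower ones (142) numbered 228 without a filter, 744 with the replicate block, 302 with the sex covariate, 223 without LP M and NP KO7 and 60 to 263 with 1 library left out, at the same extremes, with 252 without HP F1 and 90 without HP F2. The one-group fit gives no U-shape. The block and the sex covariate leave 2 and 3 residual degrees of freedom, and a low FPKM rests on few fragments.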
